A study of Mus musculus with 8 samples.

Results

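The genes described here encode 10 proteins of the endoplasmic reticulum (ER) folding machinery and its stress response: Hspa5, Hsp90b1, Calr, Canx, Pdia3, Pdia4, Pdia6, Xbp1, Dnajb9 and Herpud1. They were taken by name from the count table of a mouse RNA-seq series, with the row of highest total used where a gene had several, and all 10 of 10 were found among the 23483 genes of the table and passed the filter on low counts. Poly(A) RNA was sequenced from 8 samples of C57BL/6 mouse cells grown at 5.5 mM glucose, in 4 groups of 2 libraries. The knock-down group held Sca1 cells carrying a lentiviral shRNA against Set7, a lysine methyltransferase encoded by Setd7, and 1 targeting sequence was used, so that a second hairpin is not there to compare. The NTC group held Sca1 cells carrying the non-target shRNA vector. Both transduced groups were selected with puromycin at 1 ug per ml for at least a week. The untreated Sca1 group had no construct. All 3 Sca1 groups came from mouse embryonic stem cells kept without LIF for 4 days and then sorted with beads against Sca1, a surface protein encoded by Ly6a, to a purity over 80% by flow cytometry. The mESC group held the stem cells themselves, without sort or construct. The labels do not say whether the 2 libraries of a group came from separate cultures, and each p-value given here therefore speaks of the variation among these libraries, which may be technical.

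Proteins that are secreted or sit in membranes fold inside the ER. Hspa5 (BiP) is the Hsp70 of this compartment and holds unfolded chains, and it also binds the stress sensors Ire1, Perk and Atf6 and keeps them inactive. Hsp90b1 (Grp94) is the Hsp90 of the ER and folds a narrower set of clients, among them integrins and Toll-like receptors. Calr (calreticulin, soluble) and Canx (calnexin, in the membrane) are lectins that hold glycoproteins through their trimmed sugar chains, and Pdia3 works with both of them to form disulfide bonds. Pdia4 and Pdia6 are further protein disulfide isomerases. Xbp1, Dnajb9 and Herpud1 belong to the stress response rather than to the folding machinery itself. Ire1 splices the Xbp1 mRNA into the form that encodes an active transcription factor. Dnajb9 is a DnaJ cofactor of Hspa5 that returns Ire1 to its inactive state, and Herpud1 is a membrane protein that organises the ubiquitin ligase complex of ER-associated degradation. Cells that secrete matrix, such as fibroblasts and the parietal endoderm of the early mouse embryo, carry a heavy load for this machinery.

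Many chaperone genes of this group are known targets of Atf6 and Xbp1, which act through the ER stress element (ERSE), a CCAAT box and a CCACG box at a fixed spacing. The windows below are shown because they hold the ERSE or its relative ERSE-II in these promoters. The letters searched were CCAAT and CCACG with 9 bases of any kind between them for ERSE, ATTGG and CCACG with 1 base between them for ERSE-II, and TGACGTGG for the unfolded protein response element (UPRE), on both strands, in the 250 bases before and 50 after each start. Sequences are from RefSeq on GRCm38.p6, all 10 members matched by symbol, and each is written 5′ to 3′ on the strand of its gene with matches in capitals. A match that lies on the other strand reads as its reverse complement, which begins with CGTGG and ends with ATTGG.
Hspa5: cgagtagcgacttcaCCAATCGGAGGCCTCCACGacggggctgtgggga
Hsp90b1: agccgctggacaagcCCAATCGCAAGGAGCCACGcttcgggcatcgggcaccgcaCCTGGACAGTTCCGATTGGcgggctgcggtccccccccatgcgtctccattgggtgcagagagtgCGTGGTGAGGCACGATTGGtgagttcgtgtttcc
Calr: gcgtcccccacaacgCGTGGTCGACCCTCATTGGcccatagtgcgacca
Canx: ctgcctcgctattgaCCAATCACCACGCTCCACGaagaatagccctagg
Pdia3: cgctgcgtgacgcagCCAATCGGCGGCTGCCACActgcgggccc
Pdia4: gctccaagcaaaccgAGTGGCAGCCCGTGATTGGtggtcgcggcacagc
Pdia6: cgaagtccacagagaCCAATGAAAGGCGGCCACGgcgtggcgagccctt
Herpud1: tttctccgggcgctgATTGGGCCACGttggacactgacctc
The windows lie at chr2:34772010-34772058 (plus strand), chr10:86705518-86705671 (minus strand), chr8:84847060-84847108 (minus strand), chr11:50325785-50325833 (minus strand), chr2:121413858-121413901 (plus strand), chr6:47813587-47813635 (minus strand), chr12:17266476-17266524 (plus strand) and chr8:94386362-94386402 (plus strand), each upstream of the start. Exact ERSE letters stood in 5 of the 10 member promoters (Hspa5, Hsp90b1, Calr, Canx and Pdia6), against 0.119% of all 32851 promoters. Hsp90b1 held a pair of exact matches and, between them, 1 more that differed in 1 fixed letter. With at most 1 of the 10 fixed letters changed, Pdia3, Pdia4 and Herpud1 also matched, which made 8 of the 10 members against 1.5% of all promoters; the Herpud1 match of this kind reaches its start and is not shown. Herpud1 had the only member match to ERSE-II, which 0.0365% of all promoters held. No member had the UPRE letters in this window, and 0.676% of all promoters did. Xbp1 and Dnajb9 held none of the 3 motifs. No motif of the 3 overlapped another in the windows shown.

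**Figure D1:**
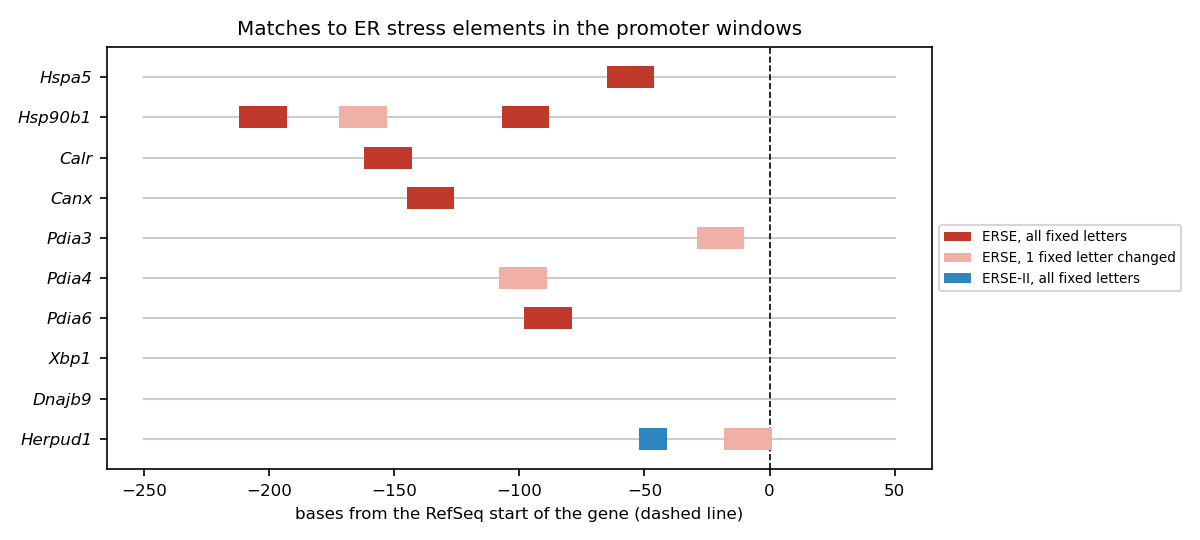
Positions of ERSE and ERSE-II matches in the member promoters, in bases from the RefSeq start of each gene. Exact ERSE matches appear in Hspa5, Hsp90b1, Calr, Canx and Pdia6, the matches with 1 changed letter in Hsp90b1, Pdia3, Pdia4 and Herpud1, and the ERSE-II match in Herpud1.

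Counts summed over genes ranged from 2507938 to 5080266 per library. Levels are given as CPM, counts scaled to library size with TMM factors, and a gene was called where its adjusted p in edgeR's quasi-likelihood test was under 0.05 over 13966 genes. Setd7 stood at 14.0 and 10.8 CPM in knock-down cells, 60.7 and 66.6 CPM in NTC cells, 76.3 and 66.3 CPM in untreated Sca1 cells and 11.2 and 16.5 CPM in mESC. The sort marker Ly6a was at 4.42 to 12.98 CPM in all 8 libraries, and its level in untreated Sca1 cells (12.98 and 4.42 CPM) overlapped that in mESC (9.85 and 5.72 CPM). The 8 pluripotency markers summed to 2904 and 2727 CPM in knock-down cells, 2234 and 2172 CPM in NTC cells, 2362 and 2032 CPM in untreated Sca1 cells, and 3640 and 3376 CPM in mESC. Untreated replicate 2 and mESC replicate 2, which share the code 56 in their descriptions, had 8.97% and 8.63% of their counts in 1 transcript, NR_046233, against 0.289% to 1.17% in the other 6. In bulk RNA, fewer cells of a type and less RNA per cell cannot be told apart.

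Per length, the members fell into 3 tiers. Calr, Hspa5 and Hsp90b1 averaged 562, 517 and 504 CPM per kb over the 8 libraries. Pdia3, Canx, Pdia6 and Pdia4 averaged 331, 263, 261 and 150 CPM per kb. Xbp1 (41.2), Herpud1 (10.8) and Dnajb9 (5.69 CPM per kb) were far lower. Together the 10 genes made up 0.601% and 0.641% of all gene counts in knock-down cells, 0.872% and 0.899% in NTC cells, 0.589% and 0.558% in untreated Sca1 cells, and 0.771% and 0.738% in mESC. The NTC libraries thus had the highest share and the untreated Sca1 libraries the lowest, with no overlap between groups. The totals behind these shares include the transcript that was high in both code 56 libraries. In CPM summed over the 10 genes, the NTC libraries were again the highest (8410 and 8616). On that scale the knock-down libraries (5871 and 6209) overlapped the untreated Sca1 libraries (5639 and 6187).

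Hspa5 was at 1058 and 1175 CPM in knock-down cells, 1797 and 1857 CPM in NTC cells, 1060 and 1148 CPM in untreated Sca1 cells, and 1335 and 1367 CPM in mESC. The NTC libraries lay above all others, and the knock-down and untreated libraries overlapped. Hspa5 fell in knock-down cells relative to NTC cells, with a log2 fold change of -0.71 ± 0.12 (SE, n = 2 each) and an adjusted p of 0.000657 in edgeR's quasi-likelihood test. The difference was -0.76 between the libraries of code 12 and -0.66 between those of code 34. It rose in NTC cells over untreated Sca1 cells by 0.73 ± 0.12 on the log2 scale (edgeR adjusted p = 0.00287), a call lost without NTC replicate 1 or 2 (highest adjusted p 0.0833). Between knock-down and untreated Sca1 cells the log2 difference was 0.02, with a 95% interval of -0.24 to 0.28. In order of mean level the groups ran NTC, mESC, knock-down and untreated, and the last 2 did not differ beyond their spread. NTC cells exceeded mESC by 0.44 on the log2 scale (edgeR adjusted p = 0.0108), a call that was lost without either NTC library (highest adjusted p 0.112).

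Hsp90b1 was at 1203 and 1325 CPM in knock-down cells, 1755 and 1756 CPM in NTC cells, 1111 and 1306 CPM in untreated Sca1 cells, and 1367 and 1579 CPM in mESC. The NTC libraries were again the highest, and the knock-down and untreated libraries overlapped. It fell in knock-down cells relative to NTC cells by 0.47 on the log2 scale (SE 0.13, edgeR adjusted p = 0.0221). It rose in NTC over untreated Sca1 cells by 0.54 ± 0.13 on the log2 scale (edgeR adjusted p = 0.0248). The untreated to mESC difference of -0.29 ± 0.13 did not pass (edgeR adjusted p = 0.104). The ratio of the 2 chaperones moved less than their levels: there were 1137 and 1127 Hsp90b1 counts per 1000 Hspa5 counts in knock-down cells, 976 and 946 in NTC cells, 1048 and 1137 in untreated Sca1 cells, and 1024 and 1155 in mESC.

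The lectins Calr and Canx did not share 1 pattern. Calr was at 1074 and 994 CPM in knock-down cells, 1462 and 1449 CPM in NTC cells, 1060 and 1086 CPM in untreated Sca1 cells, and 1313 and 1382 CPM in mESC. It fell by 0.49 on the log2 scale in knock-down relative to NTC cells (SE 0.12, edgeR adjusted p = 0.00984) and rose by 0.44 ± 0.12 in NTC over untreated Sca1 cells (edgeR adjusted p = 0.0443). Canx was at 958 and 1048 CPM in knock-down cells, 1053 and 1125 CPM in NTC cells, 857 and 960 CPM in untreated Sca1 cells, and 1350 and 1645 CPM in mESC. Its highest libraries were those of mESC, and the 3 Sca1 groups lay close together. The knock-down to NTC difference of Canx was -0.12 with a 95% interval of -0.40 to 0.16 (edgeR adjusted p = 0.632). Canx fell in untreated Sca1 cells relative to mESC by 0.72 ± 0.13 on the log2 scale (edgeR adjusted p = 0.000436), and Calr fell by 0.33 ± 0.12 (edgeR adjusted p = 0.0430). Canx counts per 1000 Calr counts were 892 and 1054 in knock-down cells, 720 and 777 in NTC cells, 808 and 884 in untreated Sca1 cells, and 1028 and 1191 in mESC.

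Pdia4 had the largest difference of the 10 members between the transduced groups. It was at 256 and 276 CPM in knock-down cells, 503 and 501 CPM in NTC cells, 284 and 309 CPM in untreated Sca1 cells, and 357 and 401 CPM in mESC, so that no 2 groups overlapped. It fell by 0.91 on the log2 scale in knock-down relative to NTC cells (SE 0.11, edgeR adjusted p = 1.78e-05), which is 0.531 of the NTC level, and rose by 0.76 ± 0.11 in NTC over untreated Sca1 cells (edgeR adjusted p = 0.00110). Both calls of Pdia4 held with each of the 8 libraries left out, with highest adjusted p of 0.00349 and 0.0458. Pdia3, the partner of the lectins, was at 711 and 746 CPM in knock-down cells, 1069 and 1102 CPM in NTC cells, 688 and 789 CPM in untreated Sca1 cells, and 1069 and 1150 CPM in mESC. Its mESC level overlapped that of NTC cells, unlike the level of Hspa5. Pdia3 fell by 0.57 on the log2 scale in knock-down relative to NTC cells (SE 0.12, edgeR adjusted p = 0.00404), rose by 0.56 ± 0.12 in NTC over untreated Sca1 cells (edgeR adjusted p = 0.0160), and fell by 0.59 in untreated Sca1 cells relative to mESC (SE 0.12, edgeR adjusted p = 0.00132). Pdia6 was at 493 and 530 CPM in knock-down cells, 656 and 697 CPM in NTC cells, 464 and 494 CPM in untreated Sca1 cells, and 615 and 589 CPM in mESC. Its changes were the smallest of the 3 isomerases between the transduced groups: it fell by 0.40 on the log2 scale in knock-down relative to NTC cells (SE 0.11, edgeR adjusted p = 0.0245) and rose by 0.50 ± 0.12 in NTC over untreated Sca1 cells (edgeR adjusted p = 0.0182).

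**Figure D2:**
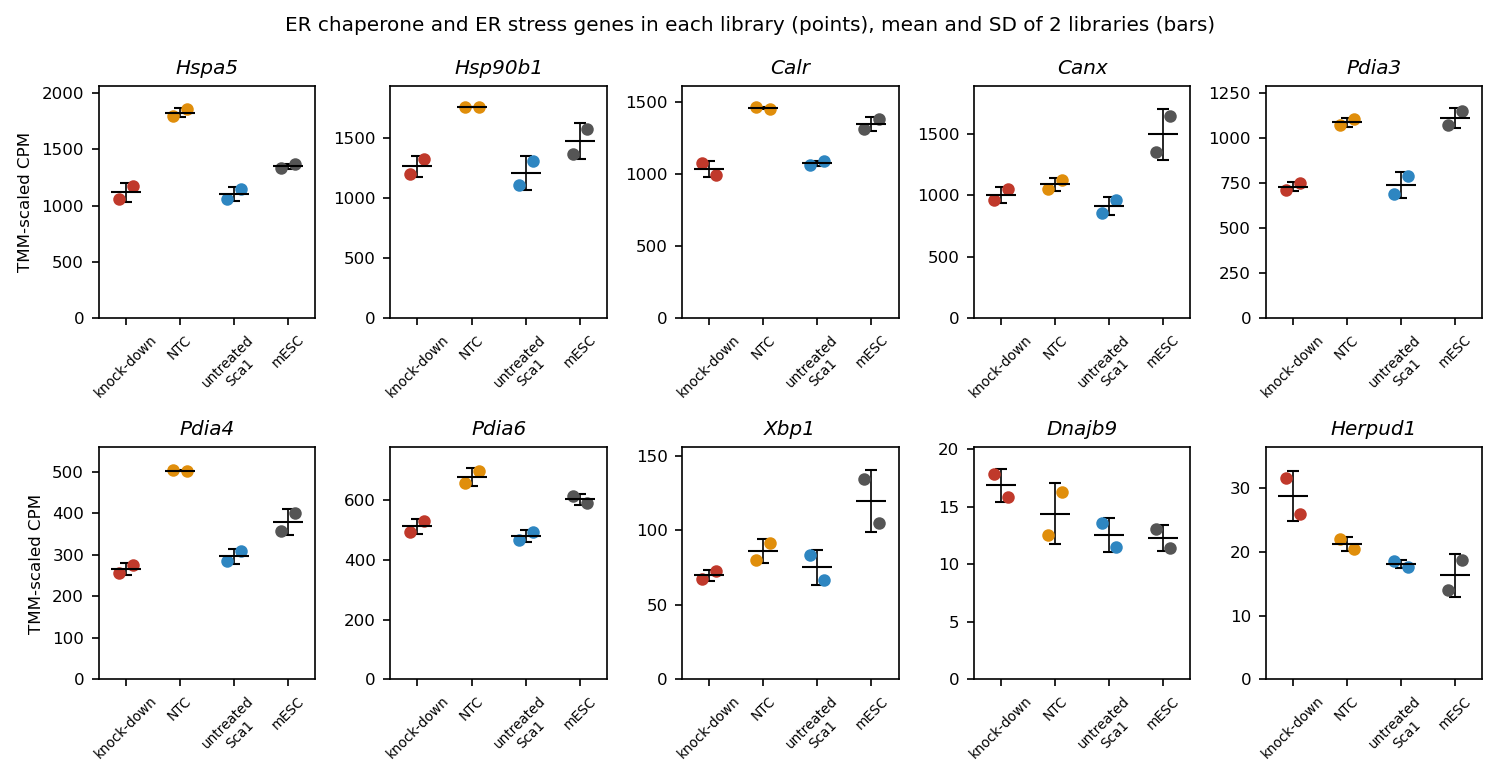
TMM-scaled CPM of the 10 members in each library (points), with the mean and SD of 2 libraries per group. Hspa5, Hsp90b1, Calr, Pdia4 and Pdia6 have their highest group mean in NTC cells, Pdia3 has means of 1085 CPM in NTC cells and 1109 CPM in mESC, Canx and Xbp1 are highest in mESC, and Dnajb9 and Herpud1 in knock-down cells.

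Xbp1, Herpud1 and Dnajb9 did not pass between knock-down and NTC cells. Xbp1 was at 67.2 and 72.5 CPM in knock-down cells, 80.4 and 91.6 CPM in NTC cells, 83.4 and 66.7 CPM in untreated Sca1 cells, and 134 and 105 CPM in mESC. The mESC libraries were the highest and the Sca1 groups lay together, and Xbp1 fell by 0.66 on the log2 scale in untreated Sca1 cells relative to mESC (SE 0.15, edgeR adjusted p = 0.00245). The table counts reads per gene and does not separate spliced from unspliced Xbp1. Its difference between knock-down and NTC cells was -0.30 ± 0.15 (edgeR adjusted p = 0.223), with a 95% interval of -0.61 to 0.02. Herpud1 was at 31.5 and 25.9 CPM in knock-down cells, 22.0 and 20.5 CPM in NTC cells, 18.5 and 17.7 CPM in untreated Sca1 cells, and 14.0 and 18.7 CPM in mESC. The knock-down libraries were the highest, and Herpud1 rose in them over untreated Sca1 cells by 0.65 ± 0.22 on the log2 scale (edgeR adjusted p = 0.0470). Leaving out any 1 of the 6 Sca1 libraries ended that call (highest adjusted p 0.279). Over NTC cells the difference was 0.42 ± 0.20 and did not pass (edgeR adjusted p = 0.182). Dnajb9 was at 17.9 and 15.8 CPM in knock-down cells, 12.5 and 16.3 CPM in NTC cells, 13.6 and 11.5 CPM in untreated Sca1 cells, and 13.1 and 11.4 CPM in mESC. It passed in none of the 6 comparisons by edgeR, with adjusted p from 0.172 to 0.902. Its counts were 26 to 73 per library, and the exact Poisson 95% interval of the smallest ran from 16.98 to 38.1 counts, which covers counting error only.

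Set against Hspa5 within each library, a ratio that needs no scaling between libraries, Herpud1 and Dnajb9 were lowest in NTC cells or near it. Herpud1 had 29.8 and 22.1 counts per 1000 Hspa5 counts in knock-down cells, 12.2 and 11.0 in NTC cells, 17.5 and 15.4 in untreated Sca1 cells, and 10.46 and 13.7 in mESC. The knock-down libraries were above all others, and the NTC and mESC libraries overlapped. Dnajb9 had 16.9 and 13.5 counts per 1000 Hspa5 counts in knock-down cells, 6.97 and 8.76 in NTC cells, 12.8 and 10.0 in untreated Sca1 cells, and 9.78 and 8.37 in mESC. Xbp1 had 63.6 and 61.7 counts per 1000 Hspa5 counts in knock-down cells, 44.7 and 49.3 in NTC cells, 78.7 and 58.1 in untreated Sca1 cells, and 100.5 and 76.8 in mESC. For these ratios no test was run.

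**Figure D3:**
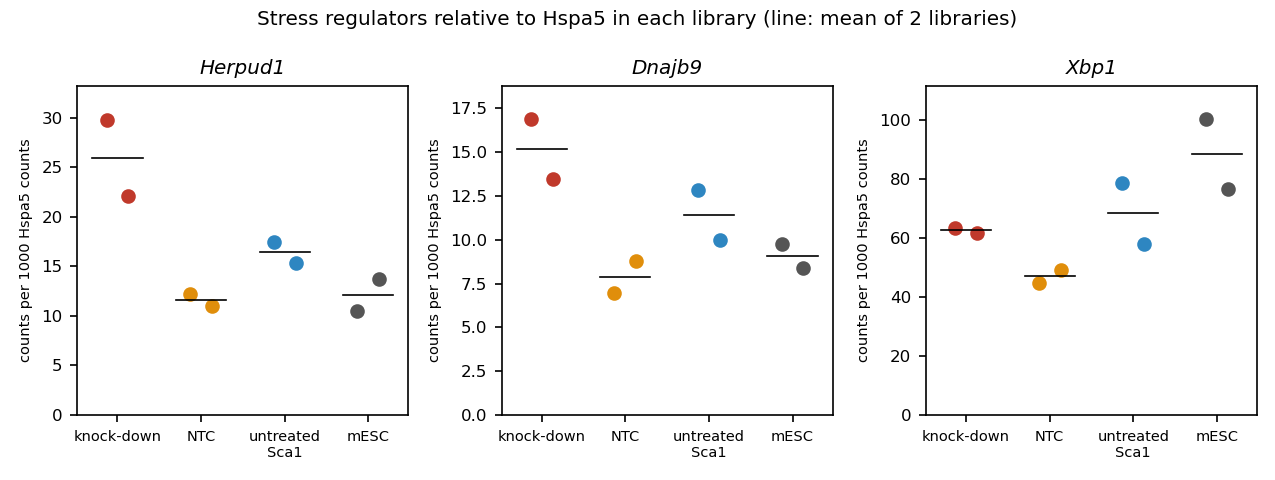
Counts of Xbp1, Dnajb9 and Herpud1 per 1000 Hspa5 counts in each library (points; the line is the mean of 2 libraries). Herpud1 is at 29.8 and 22.1 in the knock-down libraries and at 12.2 and 11.0 in the NTC libraries.

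The comparison of knock-down with NTC cells asks which genes depend on Set7 in transduced Sca1 cells. The main chaperones and isomerases were lower in knock-down cells: 6 of the 10 members fell (Hspa5, Hsp90b1, Calr, Pdia3, Pdia4 and Pdia6), and none rose. Over all genes tested, 14.3% were called in either direction, 10.1% lower and 4.25% higher (1404 and 594 genes, or 1154 and 259 with library totals only). Canx and Xbp1 did not pass but had both knock-down libraries below both NTC libraries, so 8 members did not overlap downward, against 32.9% of all genes, and Herpud1 did not overlap upward, against 31.1%. The members' median log2 fold change was -0.44, against 0.00 over all genes. Beside the count of 0 members higher by edgeR, 1 (Herpud1) had an unadjusted p under 0.05 and DESeq2 called 0. Without either knock-down library or either NTC library, Hspa5 and Pdia4 remained called and the other 4 did not, with highest adjusted p of 0.248 for Hsp90b1, 0.179 for Calr, 0.0888 for Pdia3 and 0.25 for Pdia6.

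Markers of matrix-producing cells differed in the same libraries. The 8 parietal endoderm markers, basement membrane genes among them, summed to 3570 and 3404 CPM in knock-down cells. They summed to 5671 and 5451 CPM in NTC cells, 3380 and 3763 CPM in untreated Sca1 cells, and 6666 and 6189 CPM in mESC. None was at 0 in all libraries. Being highest in mESC, this sum does not set parietal endoderm apart from the stem cells. Of the 8, 6 fell and 2 rose in untreated Sca1 cells relative to mESC, against 16.8% of all genes lower and 18.7% higher. Between knock-down and NTC cells 6 of the 8 fell and 1 rose, against 10.1% of all genes lower and 4.25% higher. The 6 fibroblast or mesenchyme markers summed to 282 and 283 CPM in knock-down cells, 2415 and 2375 CPM in NTC cells, 1513 and 1412 CPM in untreated Sca1 cells, and 797 and 673 CPM in mESC. Most of that sum in mESC was Vim (567 and 466 CPM) and Pdgfra (227 and 204 CPM), which are not restricted to fibroblasts, while Col1a1 was at 23.1 and 13.6 CPM in knock-down cells, 788 and 739 CPM in NTC cells, 256 and 331 CPM in untreated Sca1 cells, and 0.916 and 1.32 CPM in mESC. All 6 of these markers fell in knock-down relative to NTC cells, against 10.1% of all genes. Postn was at 0 CPM in both knock-down libraries and in both mESC libraries. The 5 smooth muscle markers summed to 110 and 126 CPM in knock-down cells, 501 and 530 CPM in NTC cells, 827 and 496 CPM in untreated Sca1 cells, and 10.1 and 7.92 CPM in mESC. The 9 visceral endoderm markers summed to 448 and 509 CPM in knock-down cells, 393 and 399 CPM in NTC cells, 185 and 155 CPM in untreated Sca1 cells, and 637 and 721 CPM in mESC, and Cubn alone gave 347 and 412 CPM in knock-down cells and 439 and 558 CPM in mESC. The 5 endothelial markers summed to 101 and 116 CPM in knock-down cells, 93.4 and 100.1 CPM in NTC cells, 53.2 and 49.5 CPM in untreated Sca1 cells, and 169 and 186 CPM in mESC, most of it Pecam1 (90.4 and 103 CPM in knock-down cells, 157 and 169 CPM in mESC), with Cdh5, Kdr, Tek and Tie1 each at 7.92 CPM or less. The part of these cell types in the chaperone differences was not tested. Blood markers were near 0, at 1.24 to 6.37 CPM summed over 5 genes in all 8 libraries.

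The comparison of NTC with untreated Sca1 cells asks what the vector, the virus and the selection changed. The same NTC libraries serve both comparisons, so a high NTC level lowers one value and raises the other. Of the 10 members, 6 rose in NTC cells (Hspa5, Hsp90b1, Calr, Pdia3, Pdia4 and Pdia6) and none fell, against 3.88% of all genes higher, 1.11% lower and 4.99% in either direction (542 and 155 genes higher and lower, or 493 and 18 with library totals only). Lower with no overlap were 0 members and 24% of all genes. In 8 members both NTC libraries were above both untreated libraries, against 29.4% of all genes. The members' median log2 fold change was 0.47, against 0.01 over all genes. NTC libraries carry the codes 12 and 34 and untreated libraries 34 and 56, so these groups share only code 34. Within code 34 the log2 differences of the 6 ran from 0.45 (Calr) to 0.82 (Pdia4). By edgeR, 0 members had an unadjusted p under 0.05 in the downward direction, and DESeq2 called 0 lower. Pdia4 kept its call without each library, and Hspa5 without each but the NTC libraries. Without NTC replicate 1 or 2, Pdia4 was the only member called, and the highest adjusted p of the others was 0.261 for Hsp90b1, 0.357 for Calr, 0.202 for Pdia3 and 0.248 for Pdia6. Leaving out knock-down replicate 1 or 2 or untreated replicate 1 left 2 calls, Hspa5 and Pdia4, and leaving out untreated replicate 2 left 4.

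Set directly against untreated Sca1 cells, knock-down cells differed in 1 member, the rise of Herpud1, against 7.34% of all genes higher, 9.89% lower and 17.2% in either direction (1025 higher and 1381 lower, or 852 and 882 with library totals only). No member fell by edgeR, with 0 at an unadjusted p under 0.05 in that direction and 0 by DESeq2. The 95% intervals of the log2 difference were -0.21 to 0.35 for Hsp90b1, -0.31 to 0.20 for Calr, -0.28 to 0.24 for Pdia3, -0.39 to 0.09 for Pdia4 and -0.15 to 0.34 for Pdia6. In each of these genes and in Hspa5, the lower bound lay above the value of the same gene between knock-down and NTC cells. Both values rest on the same knock-down libraries. The gap between them is the NTC to untreated difference given above, so it is no separate result. Knock-down and untreated libraries share only code 34. Within it the log2 differences of these genes ran from -0.09 (Calr) to 0.25 (Hsp90b1), with Hspa5 at 0.15. In 2 members (Dnajb9 and Herpud1) the knock-down libraries were both above the untreated libraries, against 29.7% of all genes, and in 1 (Pdia4) both below, against 29.4%.

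Set against their stem cells of origin, untreated Sca1 cells show what accompanied 4 days without LIF and the sort. Here 6 of 10 members fell (Pdia3, Pdia4, Pdia6, Calr, Canx and Xbp1) and none rose, against 16.8% of all genes lower, 18.7% higher and 35.5% in either direction. In 8 members both untreated libraries were below both mESC libraries, against 31.5% of all genes, and the members' median log2 fold change was -0.33, against -0.01. Pdia4 fell by 0.36 on the log2 scale (SE 0.11, edgeR adjusted p = 0.0213) and Pdia6 by 0.33 (SE 0.12, edgeR adjusted p = 0.0337). Hspa5, at -0.29 ± 0.12, did not pass (edgeR adjusted p = 0.0768), and its difference was -0.33 within code 34 and -0.25 within code 56. No member rose by edgeR or had both untreated libraries above both mESC libraries, which 31.2% of all genes had: 0 had an unadjusted p under 0.05 in that direction, and DESeq2 called 0. Pdia3, Canx and Xbp1 kept their calls with each library left out. The calls were 3 without NTC replicate 1, NTC replicate 2 or untreated replicate 1, and the highest adjusted p was 0.112 for Pdia4, 0.129 for Pdia6 and 0.122 for Calr. Within code 34 the log2 differences of the 6 ran from -0.31 to -0.68, and within code 56 from -0.25 to -0.78.

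Relative to mESC, the transduced groups differed from each other. In knock-down cells Pdia3, Pdia4, Calr, Canx and Xbp1 fell and Herpud1 rose, 6 of 10 members, against 12.4% of all genes lower, 13.5% higher and 25.9% in either direction (1731 lower and 1884 higher, or 1071 and 1906 with library totals only). Knock-down and mESC libraries share only code 34. Within it the log2 differences of the members that fell ran from -0.36 (Canx) to -0.88 (Xbp1), and Herpud1 was at 0.87. In 8 members both knock-down libraries were below both mESC libraries, against 30.2% of all genes, and in 2 above, against 30.4%. Herpud1 rose by 0.80 on the log2 scale (edgeR adjusted p = 0.00732), and without knock-down replicate 1 (adjusted p 0.0944) this call and all but 2 of the falls, Pdia3 and Xbp1, were lost. The fall of Calr in knock-down cells was also lost without knock-down replicate 2 or either NTC replicate. In NTC cells Hspa5 and Pdia4 rose and Canx and Xbp1 fell, 4 of 10 members, against 19.6% of all genes higher, 15.5% lower and 35.1% in either direction (2738 higher and 2160 lower, or 2912 and 1209 with library totals only). NTC and mESC libraries also share only code 34. Within it the log2 differences were 0.48 for Hspa5, 0.49 for Pdia4, -0.26 for Canx and -0.55 for Xbp1. In 6 members both NTC libraries were above both mESC libraries, against 35% of all genes, and in 2 below, against 32.9%. Pdia4 rose by 0.41 on the log2 scale (edgeR adjusted p = 0.00872). Canx fell by 0.46 (edgeR adjusted p = 0.0125) and Xbp1 by 0.47 (edgeR adjusted p = 0.0161). None of these 4 calls held without NTC replicate 1, and the highest adjusted p with 1 library left out was 0.112 for Hspa5, 0.0798 for Pdia4, 0.156 for Canx and 0.191 for Xbp1.

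**Figure D4:**
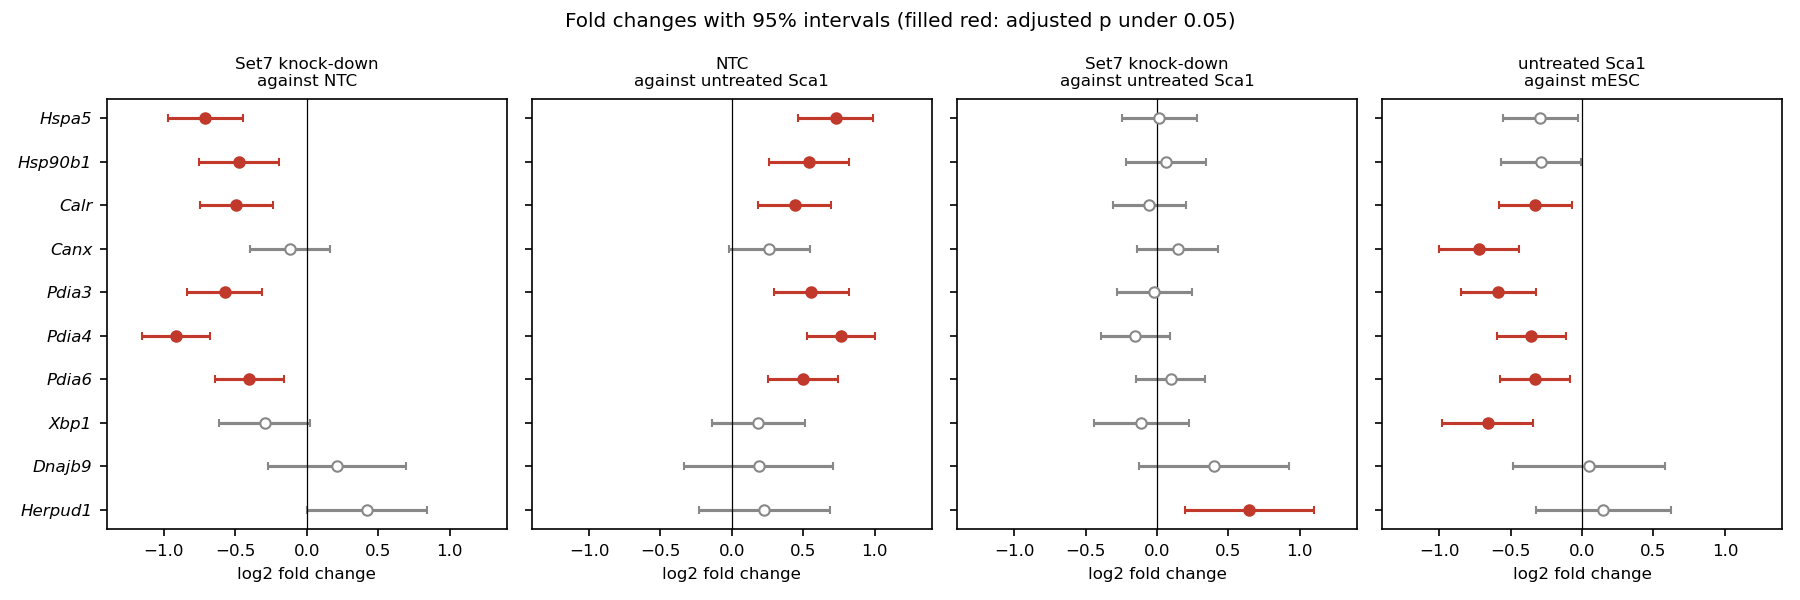
Log2 fold changes of the 10 members with 95% intervals, with filled red points for an adjusted p under 0.05. The panels show knock-down against NTC, NTC against untreated Sca1, knock-down against untreated Sca1 and untreated Sca1 against mESC. The comparisons of the transduced groups with mESC are not drawn. Between knock-down and NTC cells Pdia4 lies at -0.91 and Hspa5 at -0.71, and between knock-down and untreated Sca1 cells Herpud1, at 0.65, is the only filled point.

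Over the 8 libraries, Pdia4, Hsp90b1, Pdia6, Calr and Pdia3 followed Hspa5 in log2 CPM with Pearson r of 0.97, 0.96, 0.95, 0.89 and 0.83. Canx (0.37), Xbp1 (0.35), Dnajb9 (-0.10) and Herpud1 (-0.17) did not follow it closely. These are descriptions over 8 libraries that share 4 group means. Among 8506 genes of at least 20 CPM that are not members, the 5 most like the members' mean profile were Hyou1 (r = 0.98), Uggt1, Lamb2, Slc7a6 and Piezo1 (each r = 0.97). Hyou1, the large Hsp70-like exchange factor of Hspa5, was at 454 and 449 CPM in knock-down cells, 671 and 664 CPM in NTC cells, 366 and 437 CPM in untreated Sca1 cells, and 553 and 588 CPM in mESC. Uggt1, the glucosyltransferase that sends unfolded glycoproteins back to the lectins, was at 219 and 226 CPM in knock-down cells, 321 and 323 CPM in NTC cells, 171 and 209 CPM in untreated Sca1 cells, and 266 and 310 CPM in mESC. The 5 most like Hspa5 alone were Reep4 (r = 0.99), Brd9 and P4hb (0.98), Sec61a1 and Naxd (0.97). P4hb, the most abundant disulfide isomerase of many cells, was at 874 and 888 CPM in knock-down cells and at 1056 and 1087 CPM in NTC cells, and Sec61a1, the pore of the translocon, at 405 and 409 CPM in knock-down cells and at 549 and 544 CPM in NTC cells.

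The wider machinery was described with 12 lists that leave out the 10 members, and 213 of their genes were tested. Over all genes tested, 10.1% were called lower and 4.25% higher between knock-down and NTC cells. Between knock-down and NTC cells the naming rule gave 32 list genes, of which 15 kept their calls under each of the 19 other settings and leave-outs tried. Those given next are among the 15, and the others, Hyou1, Manf, Uggt1, Edem1 and Sel1l among them, lost their calls under at least 1. Between knock-down and NTC cells, the cofactors of Hspa5 had 6 of 14 tested genes lower and none higher, at a median log2 fold change of -0.31, and DESeq2 called 2 of the 14 lower. Dnajc3, an Hspa5 cofactor that also restrains Perk, fell to 62.0 and 64.4 CPM in knock-down cells, against 97.4 and 98.8 CPM in NTC cells, a log2 fold change of -0.63 ± 0.14 (edgeR adjusted p = 0.00210). The lectin cycle had 5 of 16 lower and none higher (median -0.34), with Mogs, the glucosidase that makes the first cut on the new sugar chain, at 66.9 and 51.0 CPM in knock-down cells against 143.7 and 138.2 CPM in NTC cells. Disulfide formation had 3 of 18 lower and none higher (median -0.12), among them Qsox1 (33.6 and 33.9 CPM in knock-down cells, 75.2 and 70.2 CPM in NTC cells) and Txndc5. Collagen folding and modification had 13 of 21 lower and 1 higher (median -0.64). In this list Serpinh1, the collagen chaperone Hsp47, was at 374 and 360 CPM in knock-down cells and 1037 and 993 CPM in NTC cells, and the prolyl isomerase Fkbp10 at 43.4 and 41.3 CPM in knock-down cells and 168.3 and 151.8 CPM in NTC cells. Plod3 and P3h4, which serve collagen modification, had log2 fold changes of -1.38 and -1.66. The ER calcium list had 4 of 14 lower and none higher (median -0.38), with Rcn1, Rcn2 and Rcn3, calcium-binding proteins of the secretory pathway, at -0.75, -0.94 and -1.66.

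ER-associated degradation had 4 of 21 lower and 1 higher between knock-down and NTC cells (median -0.19), and the stress sensors and their transcription factors had 1 of 11 lower and none higher (median -0.26). That 1 gene was Creb3l1, an ER membrane factor tied to collagen secretion, at 5.95 and 5.94 CPM in knock-down cells and 25.8 and 26.7 CPM in NTC cells. The Atf4 and Chop branch, which serves amino acid supply and redox balance and is also switched on by signals from outside the ER, had 7 of 27 higher and 1 lower (median 0.21). Atf4 was at 453 and 418 CPM in knock-down cells and 226 and 223 CPM in NTC cells, a log2 fold change of 0.96 ± 0.17 (edgeR adjusted p = 0.00124). Chac1, which breaks down glutathione, rose by 2.05 and the pseudokinase Trib3 by 1.27 on the log2 scale. The untreated Sca1 libraries were split for these genes, with Atf4 at 399 and 276 CPM and Chac1 at 18.5 and 6.19 CPM. The oligosaccharyltransferase had 1 of 12 lower and none higher (median -0.04), and translocation and signal peptide cleavage had 1 of 24 lower and none higher (median 0.03). Outside the ER, the cytosolic chaperones had 2 of 25 higher and none lower (median 0.17), and the mitochondrial chaperones had 0 of 10 called in either direction by edgeR. Of those 10, 3 higher and 1 lower had an unadjusted p under 0.05, and DESeq2 called 0. The lists held 213 tested genes, and of all genes tested 4.25% were called higher and 10.1% lower. Over the lists together 11 genes rose and 39 fell in knock-down cells relative to NTC cells, and with 1 library left out those counts ran from 3 to 16 and from 19 to 54. Each of the knock-down and NTC libraries, when left out, brought the count of genes that rose to 3 or 4.

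Between NTC and untreated Sca1 cells, collagen folding had 6 of 21 tested genes higher (median 0.46) and the lectin cycle 6 of 16 (median 0.41). The stress sensors had 2 of 11 higher (median 0.39) and the oligosaccharyltransferase 3 of 12 (median 0.33). The ER calcium list had 1 of 14 higher (median 0.33) and the Hspa5 cofactors 3 of 14 (median 0.26). No gene of these 6 lists was called lower. Over all genes tested, 3.88% were called higher and 1.11% lower. Ganab, the catalytic subunit of glucosidase II, was at 690 and 677 CPM in NTC cells and 364 and 347 CPM in untreated Sca1 cells, and was the 1 gene named by rule whose call held under each setting. In all, 28 list genes rose and 1 fell, but without NTC replicate 1 the count that rose was 1, and without NTC replicate 2 it was 6. Knock-down cells had more Ganab than untreated Sca1 cells as well, at 528 and 552 CPM against 364 and 347 CPM (log2 fold change 0.60 ± 0.11, edgeR adjusted p = 0.00134). Between untreated Sca1 cells and mESC the lectin cycle had 7 of 16 lower and 1 higher. The oligosaccharyltransferase had 5 of 12 lower and 1 higher, and the Atf4 and Chop branch 15 of 27 higher and 3 lower. The stress sensors and their transcription factors had 4 of 11 lower and 2 higher, and ER-associated degradation had 1 of 21 lower and 5 higher. In that comparison 16.8% of all genes tested were called lower and 18.7% higher. Clgn, a calnexin relative best known from the testis, was at 8.65 and 4.86 CPM in untreated Sca1 cells and 31.1 and 34.6 CPM in mESC. Among the 4 lower genes of the sensor list, Atf6, the sensor that becomes a transcription factor of chaperone genes, fell by 0.62 on the log2 scale (SE 0.15, edgeR adjusted p = 0.00331). Eif2ak3, which encodes Perk, fell by 0.84 (SE 0.18, edgeR adjusted p = 0.00162).

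**Figure D5:**
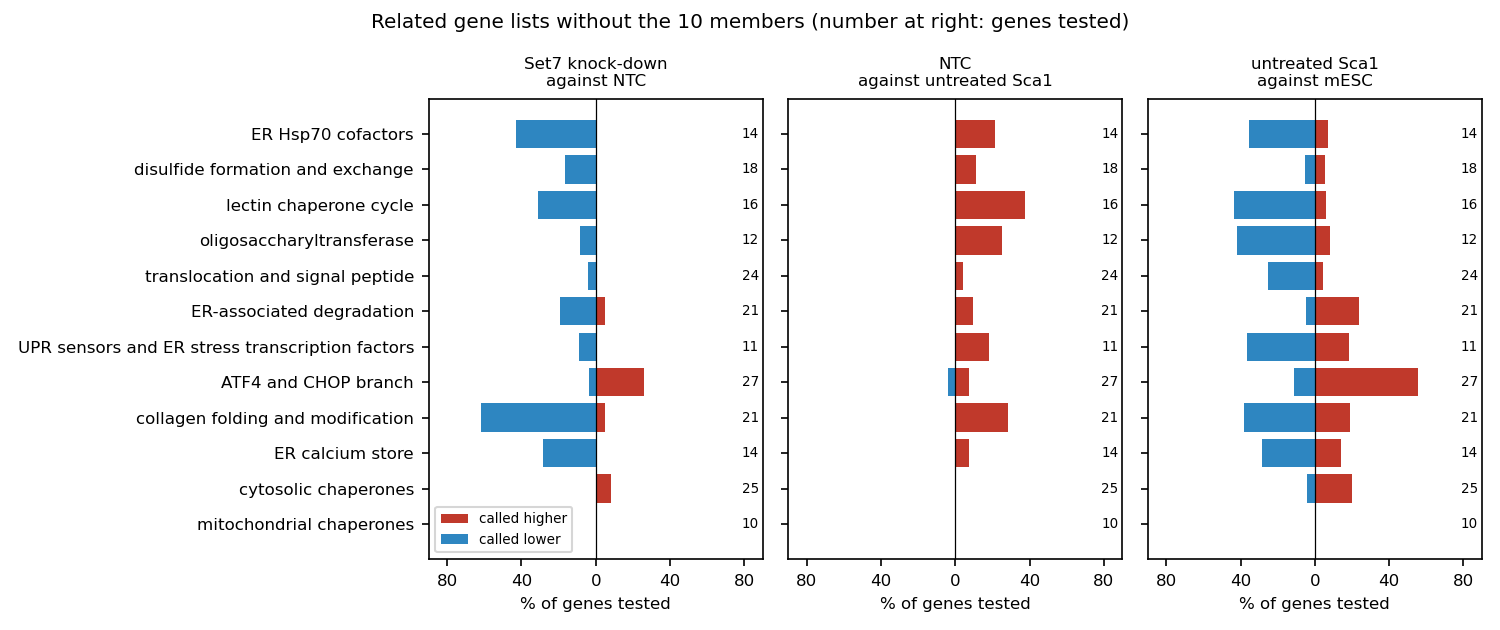
Percent of the tested genes of each list, without the 10 members, that were called higher (right of 0) or lower (left of 0). Between knock-down and NTC cells, collagen folding has 13 of 21 genes lower, the lectin cycle 5 of 16, and the Atf4 and Chop branch 7 of 27 higher.

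Of 37 genes whose RefSeq promoter held the exact ERSE letters, 32 were not members and 16 of these were tested. Between knock-down and NTC cells 2 of the 16 rose (Acacb and Xlr3a) and 2 fell (Dnajc3 and Syvn1), with a median log2 fold change of 0.22. Over all genes tested 4.25% rose and 10.1% fell. Syvn1, the ubiquitin ligase Hrd1 of ER-associated degradation, fell by 0.58 (edgeR adjusted p = 0.00905) and rose by 0.77 in NTC over untreated Sca1 cells (edgeR adjusted p = 0.00616). The fall was lost without either knock-down replicate or either NTC replicate. The rise was lost without either NTC replicate or untreated replicate 1. Creld2, another ER stress gene with the motif, differed by 0.20 between knock-down and NTC cells (edgeR adjusted p = 0.314) and rose by 0.59 in knock-down over untreated Sca1 cells (edgeR adjusted p = 0.00361), which did not hold without knock-down replicate 1 (adjusted p 0.0809). Dnajc3 and Creld2 are among the Hspa5 cofactors, and Syvn1 in the degradation list. Among the members with the exact motif, Hspa5, Hsp90b1, Calr and Pdia6 fell between knock-down and NTC cells, and Canx was not called. Of those with 1 letter changed only, Pdia3 and Pdia4 fell, Pdia4 with the largest difference of all members, and Herpud1 was not called. A link between motif and change was not tested.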

How the data were processed

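The deposited table holds a read count, a whole number, for each RefSeq transcript and library, and the values themselves show no scaling by the authors. Per the submitters' processing notes BWA 0.5.9, SAMtools 0.1.17 and edgeR 0.19 were used, with no role stated. The genome build, the counting program and the strand were not given in the sources used here. Of 29614 transcripts, 28985 were named by a RefSeq gene table and 173 by GENCODE vM21, and 456 kept their accession. The row of highest total stood for each gene, since rows of 1 gene can be identical (Canx has 3 such rows and Hspa5 has 2). Transcript totals were 3354828 to 6788049.

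The model took all 8 libraries, with a mean for each group, in R 4.3.3 with edgeR 4.0.16, after filterByExpr and TMM scaling. It left 4 residual degrees of freedom, at a common dispersion of 0.0133. Genes were called at 0.05 on p-values of the robust quasi-likelihood F test, adjusted by Benjamini-Hochberg over 13966 genes, and "rose" and "fell" mark calls. Standard errors were obtained by dividing the log2 fold change by the root of F. The 10 members, the 12 lists and the markers were chosen with earlier results of these data known. Named were all members, up to 4 called genes of smallest p per list, and the 5 genes most like each profile. Acacb, Xlr3a, Creld2 and the list genes singled out for holding their calls were picked after their values were seen. On simulated counts, 32.8%, 94% and 100% of 1.5-fold, 2-fold and 4-fold changes were recovered for knock-down against NTC, and 23.9%, 89.6% and 100% for untreated Sca1 against mESC, at 13966 genes. Lengths for CPM per kb came from GENCODE vM21, and motifs were searched in RefSeq promoters. As alternatives, scaling was done by RLE or by library totals alone, DESeq2 1.42.0 replaced edgeR, genes were left unfiltered or filtered at 5 CPM, rows of a gene were summed, the fit was cut to the compared groups, either replicate number served as a block, and each library was left out.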

Additional observations from a re-analysis of the deposited data

How the results depend on the processing

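No called fold change of a member changed sign under any of the 19 alternatives. With library totals only, which puts the median log2 fold change of all genes at 0.10 between NTC and untreated Sca1 cells (0.01 with TMM), at 0.10 between knock-down cells and mESC (-0.01 with TMM) and at 0.12 between NTC cells and mESC (-0.01 with TMM), 3 members fell in knock-down against NTC cells (Hspa5, Pdia3, Pdia4), 3 fell in untreated Sca1 cells against mESC (Pdia3, Canx, Xbp1), 3 rose in NTC against untreated Sca1 cells (Hspa5, Pdia3, Pdia4), 2 fell in knock-down cells against mESC and 0 fell in NTC cells against mESC. DESeq2, and likewise the sum of a gene's rows, called 0 members higher in knock-down against untreated Sca1 cells. With the compared groups only, 1 member (Herpud1) rose in knock-down against NTC cells and 3 fell in untreated Sca1 cells against mESC. Without both libraries of code 56, an alternative chosen after seeing the data, 1 member (Herpud1) rose in knock-down against NTC cells, 2 in knock-down against untreated Sca1 cells (Canx, Herpud1) and 4 in NTC cells against mESC (Hspa5, Hsp90b1, Pdia4, Herpud1), and Canx also rose in NTC against untreated Sca1 cells. Xbp1 fell in knock-down against NTC cells with the compared groups only and without code 56. The cause of these shifts was not tested.

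With 1 library left out at a time, the members that fell in knock-down against NTC cells numbered 2 to 6, and those that fell in untreated Sca1 cells against mESC 3 to 8. Members higher in NTC against untreated Sca1 cells numbered 1 to 6, and in knock-down against untreated Sca1 cells 0 to 1. Against mESC, 0 to 1 rose and 2 to 5 fell in knock-down cells, and 0 to 3 rose and 0 to 2 fell in NTC cells. Over all genes the calls ran from 648 to 4462 around 1998 for knock-down against NTC cells, from 57 to 2386 around 697 for NTC against untreated Sca1 cells, from 796 to 3570 around 2406 for knock-down against untreated Sca1 cells, from 1844 to 4796 around 3615 for knock-down cells against mESC, and from 2906 to 6303 around 4898 for NTC cells against mESC, with the highest count in each without both code 56 libraries.

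The replicate numbers are not stated to pair the cultures. Over 13966 genes, same-numbered deviations correlated at 0.05 for knock-down with NTC and 0.26 for untreated Sca1 with mESC. With the title number as a replicate block the member counts stayed at 6, 6 and 6 in the first 3 comparisons, and with the description number as a block they were 6 lower in knock-down against NTC cells, 8 lower in untreated Sca1 cells against mESC, with Hspa5 and Hsp90b1 added, and 7 higher in NTC against untreated Sca1 cells, with Canx added. In knock-down against untreated Sca1 cells that block left 1 call, Canx in place of Herpud1, and in NTC cells against mESC it gave 3 higher. Depth limits Dnajb9, with 26 to 73 counts per library, and Herpud1, with 40 to 118.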
